A study of Mus musculus with 20 samples.

Results

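The comparison described here set Thy1hi keratinocytes against hair follicle stem cells (HFSC), both sorted from the dorsal epidermis of mice and profiled by bulk RNA sequencing. The members were the genes with at least 10 normalized counts in at least 3 of the 8 libraries of these populations, 4 Thy1hi and 4 HFSC, which left 14750 of 53380 genes. Across the whole series 20 libraries covered 5 sorted populations, of which 8 are compared here and the 4 Thy1- basal keratinocyte libraries serve as a reference level. Thy1hi cells were gated as integrin α6+ Sca1+ with high Thy1, Thy1- cells as α6+ Sca1+ without Thy1, and HFSC as α6+ Sca1- CD34+. The genes of these proteins (Thy1, Ly6a for Sca1, Itga6, Cd34) were thus part of the sort, and Thy1, Ly6a and Cd34 check the labels only. Integrin α6 was required of both Thy1hi and HFSC, so Itga6 does not check which label a library has. Every library carries the genotype label Thy1.2CreERT2-Rosa26-EYFP, a tamoxifen-dependent Cre under a Thy1.2 promoter with a yellow fluorescent reporter, and the treatment label for all of them is no treatment, whereas the methods name wild-type C57BL/6J animals for the sorted populations. The labelled ages run from 8 to 11 weeks in HFSC and from 20 to 23 weeks in Thy1hi, rising by 1 with each replicate. Over the whole series they rise by 1 from sample to sample, from 8 to 27 weeks. The Thy1- libraries carry the highest ages, while the series text gives 8 weeks for all. If the labels are right, age and population cannot be told apart. The libraries were made in separate batches with an mRNA kit or a stranded total RNA kit, and the sources used here do not tie a library to a batch or kit, so kit and population could not be separated either.

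The epidermis is renewed from its basal layer, a sheet of integrin-bearing, keratin 5 and keratin 14 expressing cells that divide and send daughters upward to the spinous and granular layers. Hair follicles keep their own stem cells in the bulge, a quiet compartment marked by CD34 and Lgr5 that is woken in cycles by WNT signals and held at rest by BMP signals. Thy1, also called CD90, is a small lipid-anchored surface glycoprotein best known from T cells, those of the mouse epidermis included, and from neurons.

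The Thy1hi libraries held 7910401 to 11640152 reads on genes and the HFSC libraries 10835150 to 12206735. The ribosomal RNA gene Rn45s took 20.6 to 37.0% of the Thy1hi reads and 38.3 to 41.5% of the reads of HFSC 1 to 3, but 13.1% of HFSC 4. In a principal component analysis of the 8 libraries the first component, with 42.0% of the variance, separated the populations, and the second, with 25.8%, set HFSC 4 (103) apart from the other HFSC libraries (-51.3 to -18.3). HFSC 4 was also low in immediate early genes (AP-1 subunits and early growth response factors), whose summed level was 7989.7 there against 99357 to 114810 in HFSC 1 to 3 and 74868 to 127260 in Thy1hi. Langerhans cell genes summed to 526 in HFSC 4, 4577 to 7720 in HFSC 1 to 3 and 1677 to 2554 in Thy1hi. Most list counts below are therefore set beside the counts without HFSC 4. In bulk samples, fewer cells of a type and less RNA per cell cannot be told apart.

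The sort was visible in the transcripts. Values are normalized counts, given for replicates 1 to 4 in order, and log2 fold changes are Thy1hi minus HFSC on log2(value + 1), with limma standard errors and p-values adjusted over all 14750 genes. Thy1 (ENSMUSG00000032011, chromosome 9, 44043384 to 44048579, mm10) stood at 775, 663, 511 and 583 in Thy1hi and 85.4, 68.4, 57.7 and 18.2 in HFSC. Every Thy1hi library lay above every HFSC library (log2 fold change 3.62, SE 0.38, adjusted p = 2.37e-06), and the Thy1- libraries averaged 69.1. Ly6a, which encodes Sca1, stood at 261, 186, 196 and 185 in Thy1hi and 78.5, 42.4, 72.7 and 35 in HFSC, without overlap (1.90, SE 0.45, adjusted p = 0.00626). Cd34 (ENSMUSG00000016494, chromosome 1, 194938819 to 194961279), a sialomucin of bulge and blood-forming stem cells, stood at 51.9, 47.4, 75.6 and 56.3 in Thy1hi and 1930, 1599.8, 2622 and 2032 in HFSC. The populations were far apart (-5.12, SE 0.31, adjusted p = 8.61e-09), and the label of each library matched its gate genes. For a gene whose groups do not overlap, the exact two-sided permutation test over the 8 libraries gave p = 0.0286, the smallest value that 4 against 4 libraries allow.

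The remaining markers were not part of the gate. Procr (ENSMUSG00000027611, chromosome 2, 155751117 to 155755471), the endothelial protein C receptor and a marker of stem cells in several tissues, reached 64, 50, 86.2 and 16.5 in Thy1hi and 3.46, 8.69, 2.14 and 0.7 in HFSC. All Thy1hi libraries were higher, but the gene was scarce in HFSC, with 14 reads over the 4 libraries (log2 fold change 3.61, SE 0.64, adjusted p = 0.000575). It met the filter on counts through Thy1hi alone. Ch25h (ENSMUSG00000050370, chromosome 19, 34473786 to 34475135), the enzyme that makes 25-hydroxycholesterol, reached 466, 679.7, 644 and 191 in Thy1hi and 8.08, 101, 80.2 and 5.61 in HFSC. Here too the groups did not overlap (4.07, SE 0.80, adjusted p = 0.00161), although HFSC spread over more than a decade and Thy1hi 4 was low. Lgr5 (ENSMUSG00000020140, chromosome 10, 115450311 to 115587780), the R-spondin receptor that marks stem cells of the lower bulge and hair germ, ran the other way with 19.9, 32.9, 26.8 and 18.4 in Thy1hi and 665, 443, 545 and 572 in HFSC (-4.47, SE 0.36, adjusted p = 2.16e-07). In the Thy1- libraries Procr averaged 16.5, Ch25h 299 and Lgr5 39.4. In the lineage-labelled Thy1hi libraries, sorted for the yellow reporter as well, Procr averaged 97.7, Ch25h 95.7 (SD 70.2) and Lgr5 40.6. Ch25h was thus not at the Thy1hi level there, but near HFSC 2 and 3. Set directly against Thy1-, where 0.427% of the tested genes were called, Thy1hi differed by 0.71 in Ch25h (adjusted p = 0.995) and by 1.54 in Procr (adjusted p = 0.485) when all populations were fitted together. Same-numbered Thy1hi and Thy1- libraries deviated together, and with the replicate number as a block in these 8 libraries alone, an alternative chosen after seeing the data, 1473 genes were called in place of 63, among them Ch25h (adjusted p = 0.0358) and Procr (adjusted p = 0.00362).

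**Figure D1:**
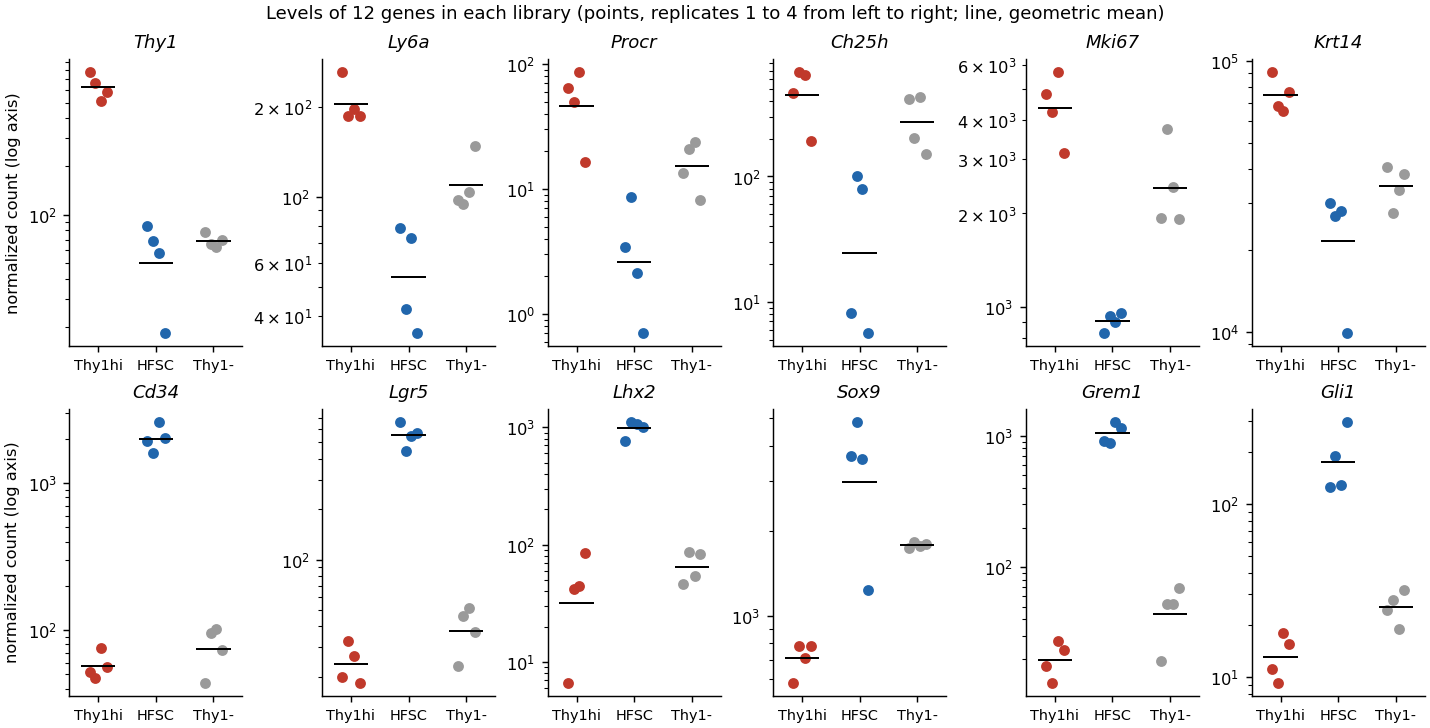
Normalized counts (log axis) of 12 genes in each Thy1hi, HFSC and Thy1- library, with 1 point per replicate and a line at the geometric mean. Thy1, Ly6a, Procr, Ch25h, Mki67 and Krt14 were higher in all 4 Thy1hi libraries than in any HFSC library, and Cd34, Lgr5, Lhx2, Sox9, Grem1 and Gli1 were lower.

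Over all genes, 2366 of 14750 differed between Thy1hi and HFSC at an adjusted p of 0.05 (16.0%). Of these, 1135 were higher in Thy1hi (7.69%) and 1231 lower (8.35%), and the median change over all tested genes was -0.02. These shares are the background against which the list counts below are read. Changes toward HFSC were the larger ones: 162 genes were lower by at least 3 on the log2 scale, against 13 higher by as much. Among the called genes, 2085 had no overlap between the 4 and 4 libraries, while non-overlap in either direction was met by 21.7% of all tested genes. With every library scaled to the same total instead, 1247 genes were higher and 782 lower, so the share of higher calls went from 48.0% to 61.5%. Without HFSC 4, 896 genes were higher and 1128 lower, with 821 of the 1135 higher and 906 of the 1231 lower calls kept. Without both libraries numbered 4, an alternative chosen after seeing the data, the counts were 1182 and 1251. HFSC 4 was the lowest HFSC library for 698 of the 1135 genes called higher in Thy1hi (61.5%) and for 37.4% of the genes not called. It was the highest HFSC library for 599 of the 1231 genes called lower (48.7%) and for 37.3% of the genes not called.

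**Figure D2:**
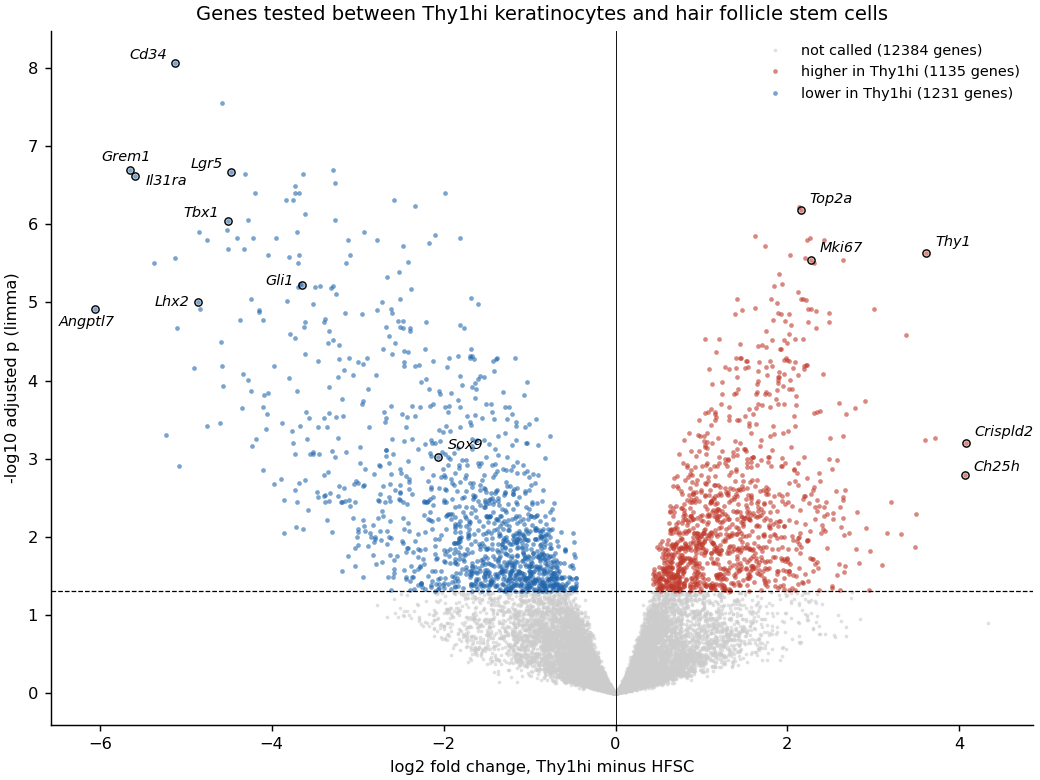
Each point is one of the 14750 tested genes, with the log2 fold change (Thy1hi minus HFSC) on the horizontal axis and -log10 of the adjusted p (limma) on the vertical axis. The dashed line is the threshold of 0.05, above which lie 1135 genes higher and 1231 lower in Thy1hi, and the lower genes reach further from 0.

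The genes that stood highest in Thy1hi relative to HFSC included several for secreted and surface proteins. Crispld2 (chromosome 8, 119992438 to 120052793), a secreted glycoprotein, had 379.8, 339, 424 and 233 in Thy1hi and 48.5, 40.2, 31 and 1.4 in HFSC (4.08, SE 0.73, adjusted p = 0.000637). HFSC 4 was nearly empty of it, yet the other HFSC libraries were also well below every Thy1hi library. Adam8, a membrane-bound metalloprotease, had 1113, 1303, 1445 and 529.7 in Thy1hi and 86.6, 201, 138 and 14 in HFSC (3.72, adjusted p = 0.000545). Mmp3, the matrix protease stromelysin-1, rose by 3.50 (adjusted p = 0.00507), and Has3, a hyaluronan synthase, by 2.68 (adjusted p = 0.00027). Thbs1, the adhesive matrix protein thrombospondin-1, had 24099, 25086, 28818 and 24841 in Thy1hi and 8843, 4444, 7743 and 865 in HFSC (2.67, adjusted p = 0.00254). Anln, the actin-binding anillin of the cleavage furrow, had 1134, 1021, 1250.2 and 1040 in Thy1hi and 182, 151, 172 and 201 in HFSC, with tight replicates on both sides (2.65, SE 0.28, adjusted p = 2.89e-06). Epgn, an EGF receptor ligand (2.80), Bcl3, a nuclear regulator of NF-κB (2.65), Depdc7 (2.90), Ifi202b, an interferon-inducible DNA sensor (2.79), Tubb6, a beta-tubulin (2.94), Ccdc80, a matrix protein (2.66), and the predicted gene Gm7897 (3.10) completed the 15 highest. The ranking covers called genes without overlap and with a mean of at least 100 counts in the higher population. For 13 of these 15 genes HFSC 4 was the lowest HFSC library. Without it the changes shrank by more than 1.5 times in Tubb6 (1.26), Gm7897 (1.78), Ifi202b (1.64), Bcl3 (1.70) and Epgn (1.84), and Ccdc80 stood at 2.30 with adjusted p = 0.0816. Leaving out single libraries ended the call for Ccdc80 (without HFSC 1 or 4 or without Thy1hi 2 or 3, adjusted p 0.0536 to 0.0816), Gm7897 (without Thy1hi 1, 2 or 3, adjusted p 0.0602 to 0.0621) and Tubb6 (without Thy1hi 1, 2, 3 or 4, adjusted p 0.052 to 0.117).

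The strongest differences in the whole comparison were toward HFSC and included secreted antagonists and matrix proteins of the bulge. Angptl7 (chromosome 4, 148495183 to 148500460), a secreted angiopoietin-like factor, had 5.52, 13.2, 12.2 and 20.4 in Thy1hi and 601, 288, 1901 and 1529 in HFSC. All HFSC libraries were an order of magnitude or more above all Thy1hi libraries (-6.05, SE 0.73, adjusted p = 1.2e-05). Grem1 (chromosome 2, 113746164 to 113758646), the BMP antagonist gremlin, had 17.7, 13.2, 27.6 and 23.3 in Thy1hi and 905, 882, 1274 and 1139 in HFSC (-5.65, SE 0.44, adjusted p = 2.03e-07). Il31ra, a subunit of the interleukin-31 receptor, had 29.8, 35.6, 74 and 67.9 in Thy1hi and 2039.7, 1142, 2523 and 5301 in HFSC (-5.59, SE 0.46, adjusted p = 2.42e-07). Ctgf, connective tissue growth factor, had 28.7, 40.8, 55.3 and 82.5 in Thy1hi and 3261, 936, 2903 and 1943 in HFSC (-5.37, adjusted p = 3.16e-06). Chat, choline acetyltransferase, which makes acetylcholine, had 13.2, 7.9, 24.4 and 11.6 in Thy1hi and 553, 338, 427 and 708 in HFSC (-5.10, adjusted p = 2.16e-05). The rest of the 15 strongest, under the same limits on overlap and mean count, were Col8a2, a short-chain collagen (-5.23), Ltbp2, a latent TGF-β binding protein (-5.13), Cd34, Myoc, the secreted protein myocilin (-5.08), the uncharacterized gene 9530086O07Rik (-4.91), Lhx2, a LIM homeobox factor (-4.86), Pdzrn4 (-4.85), Krt24, a type I keratin (-4.84), Shisa2, an endoplasmic reticulum protein that holds back WNT and FGF receptors (-4.76), and Tgm5, a transglutaminase (-4.58). Of these, 9530086O07Rik had 10 reads over the 4 Thy1hi libraries and met the filter on counts through HFSC alone. Its change ran from -5.58 to -3.13 over the alternatives.

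Bulge genes as a group were lower in Thy1hi. Among 18 bulge transcription factors 13 were lower and the other 5 did not pass, with a list median of -1.52 (all genes, -0.02), and the share of lower calls over all genes was 8.35%. Lhx2, which keeps bulge cells in their stem state, had 6.62, 42.1, 43.9 and 85.4 in Thy1hi and 757, 1113, 1072 and 1001 in HFSC. No Thy1hi library came near the HFSC range, and the spread within Thy1hi was wide at these low levels. Tbx1, a T-box factor that sustains bulge self-renewal, fell by 4.51 on the log2 scale (adjusted p = 9.21e-07), Foxc1, a forkhead factor of bulge quiescence, by 3.19 on the log2 scale (adjusted p = 0.000173), and Tcf7l1, a WNT-repressive HMG factor, by 3.05 on the log2 scale (adjusted p = 8.44e-05). Sox9, the follicle fate factor, had 579.6, 782, 710.5 and 782 in Thy1hi and 3664, 4861, 3587 and 1235 in HFSC (-2.07, adjusted p = 0.000956). It was therefore not absent from Thy1hi, where it held 580 to 782 counts. Runx1, a regulator of bulge activation, had 113, 126, 136 and 130 in Thy1hi and 532, 757, 560.2 and 733 in HFSC, and its replicates were tight on both sides (-2.33, SE 0.21, adjusted p = 5.78e-07). Runx1 was also among the genes lower in Thy1hi than in Thy1- (-1.47, adjusted p = 0.00394), whose libraries averaged 353. Without HFSC 4, 14 of the 18 factors were lower.

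The surface and secreted genes of the bulge had a list median larger in size, at -2.79. Of 25 tested, 22 were lower, against 8.35% of all genes. Without HFSC 4, 22 were lower as well, with Cd34 itself part of the gate. Beside Angptl7, Cd34, Krt24 and Lgr5, the larger falls included Cd200, an immune-inhibitory surface glycoprotein (-3.80), Fgf18, a growth factor of the resting bulge (-3.56), Igfbp5, a binding protein for insulin-like growth factors (-3.30), and Ptn, the growth factor pleiotrophin (-2.64). Krt15, a keratin widely used as a bulge marker, did not separate the populations. It had 21801, 15651, 12668 and 35169 in Thy1hi and 50076, 44723, 50366 and 22299 in HFSC. Thy1hi 4 lay above HFSC 4, so the groups overlapped, and the difference did not pass (-1.01, SE 0.47, adjusted p = 0.146). Without both libraries numbered 4 it did, at -1.57 (adjusted p = 0.0347).

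The lists for the follicle above and below the bulge had medians of smaller size (-1.22 and -0.89), and lists were not tested against each other. In the upper follicle list (isthmus, infundibulum and sebaceous duct) 7 of 16 were lower (8.35% of all genes) and 9 did not pass (median -1.22, and 8 lower without HFSC 4). The lower genes included Defb6, a beta-defensin (-1.98), Krt79, a keratin of the infundibulum and duct (-1.93), and Cst6, a protease inhibitor (-1.67), with adjusted p of 0.0207, 0.0174 and 0.0155. Without Thy1hi 1 the list gave 1 call, and Krt79 then stood at -1.56 (adjusted p = 0.0788). In the list for the lower follicle and hair germ, 1 of 12 was higher, near the share of all genes, and 2 were lower (1 and 3 without HFSC 4). The higher one was Gata3, a zinc finger factor of epidermis and inner root sheath, with 4397, 5406, 4509.9 and 3217 in Thy1hi and 1496, 1773, 1845 and 1314 in HFSC (1.44, adjusted p = 0.000322). Thy1- cells held 3885 on average, close to the Thy1hi level. The lower ones were Hoxc13, the hair cortex homeobox factor (-4.61), and Dlx3 (-2.001). The call depended on single libraries for Cst6 (without Thy1hi 1 or 3, adjusted p 0.0504 to 0.0649), Defb6 (without HFSC 1 or without Thy1hi 1 or 3, adjusted p 0.0533 to 0.0738) and Dlx3 (without HFSC 1, 2 or 3 or without Thy1hi 1, 2 or 3, adjusted p 0.0603 to 0.115).

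Basal layer genes stood on the Thy1hi side. Of 24, 10 were higher and 2 lower, with a median of 0.98, against 7.69% higher over all genes, and 9 were higher without HFSC 4. Ly6a and Itga6 are in this list and belong to the gate, Itga6 as a marker required of both populations. Krt14, the basal type I keratin, had 90985, 68124, 65455 and 76817 in Thy1hi and 29855, 26882, 28025 and 9872 in HFSC. The Thy1hi libraries were all more than 2 times the highest HFSC library (1.78, SE 0.43, adjusted p = 0.00744), and Thy1- averaged 34953. Its partner Krt5 had 80657, 59250, 49782 and 79215 in Thy1hi and 39645, 37535, 43698 and 16239 in HFSC, again without overlap, but did not pass the test (1.04, SE 0.43, adjusted p = 0.111). Klf5, a zinc finger factor of proliferating epithelium, had 5506, 5719, 4738 and 4153 in Thy1hi and 1882, 1454, 1629 and 639.7 in HFSC (1.94, adjusted p = 0.00099). The lower members were Ptprk, a receptor phosphatase at cell contacts, with 44.2, 67.2, 77.2 and 92.2 in Thy1hi and 846, 739, 882 and 899.6 in HFSC (-3.61, adjusted p = 7.32e-07), and Cxcl14, an epithelial chemokine (-1.83, adjusted p = 0.000734).

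Differentiation genes gave a mixed picture. Among 18 spinous layer genes 3 were higher and 3 lower (median -1.12, and 0 and 3 without HFSC 4), against 7.69% and 8.35% of all genes. Among 22 granular layer genes 1 was lower, with or without HFSC 4, a smaller share than among all genes, and this was the peptidase Klk5 (-1.62, adjusted p = 0.0289). Calml3, a calmodulin-like protein of early differentiation, had 35.3, 109, 133 and 159 in Thy1hi and 1797, 1982, 1798 and 984 in HFSC. It was far lower in Thy1hi (-4.04, SE 0.62, adjusted p = 0.000144). Sbsn, suprabasin (-1.99), and Skint3, an immunoglobulin-like keratinocyte gene (-1.86), were lower too, whereas Ovol1, a zinc finger factor that promotes exit from the cycle (1.88), and Tgm3, a transglutaminase (1.62), were among the higher genes. Neither of these higher calls remained without HFSC 4, where Ovol1 stood at 1.16. Krt10, the main suprabasal keratin, had 3777, 6247, 6677 and 15383 in Thy1hi and 26638, 14523, 25600 and 12738 in HFSC. The groups overlapped through Thy1hi 4, and the difference did not pass (-1.43, adjusted p = 0.0913), though it did without Thy1hi 4 (-1.80, adjusted p = 0.0384). Leaving out Thy1hi 4 raised the spinous count from 6 to 9 of 18, and leaving out Thy1hi 1 lowered it to 2. Among these genes the call was lost, with 1 library left out, for Klk5 (without HFSC 2 or 3 or without Thy1hi 1, 2 or 3, adjusted p 0.0552 to 0.0865), Ovol1 (without HFSC 4 or without Thy1hi 1, 2 or 3, adjusted p 0.0655 to 0.102), Sbsn (without HFSC 1, 2 or 3 or without Thy1hi 1, 2 or 3, adjusted p 0.0614 to 0.125) and Tgm3 (without HFSC 4 or without Thy1hi 1, adjusted p 0.0569 to 0.0617).

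**Figure D3:**
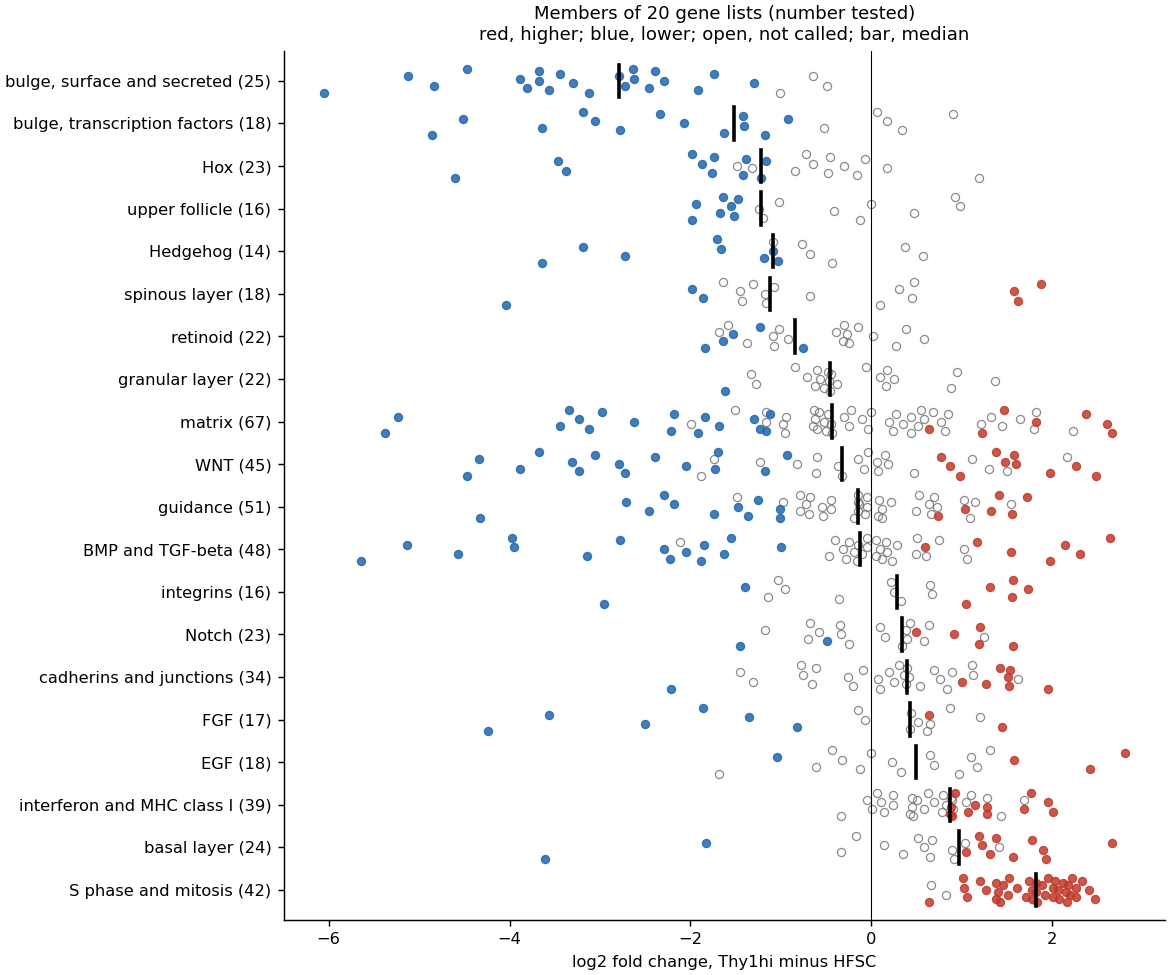
Log2 fold change (Thy1hi minus HFSC, horizontal axis) of every tested member of 20 gene lists, with the number tested beside each name. Filled points passed the test (red higher, blue lower), open points did not, and the bar is the list median, from -2.79 for bulge surface and secreted genes to 1.83 for S phase and mitosis genes.

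Cell cycle genes differed in 1 direction. Of 42 genes of S phase and mitosis, 40 were higher in Thy1hi, against 7.69% of all genes, with a median of 1.83. The 2 that did not pass were Rrm2, a ribonucleotide reductase subunit, and Pcna, the DNA polymerase clamp, which passed without HFSC 1 (adjusted p = 0.0492) or without HFSC 3 (adjusted p = 0.0266) but stood at 0.37 without HFSC 4 (adjusted p = 0.214). Summed over the list, the Thy1hi libraries held 20056, 16575, 20482 and 17575 normalized counts and the HFSC libraries 5673, 5461, 5151 and 4809, so HFSC 4 did not stand apart here, and 37 members were called without it. Mki67, which encodes the proliferation antigen Ki-67, had 4848, 4237, 5680.4 and 3117 in Thy1hi and 825, 941, 897 and 959 in HFSC (2.27, SE 0.24, adjusted p = 2.89e-06). The Thy1- libraries were in between, with a mean of 2508. Top2a, the topoisomerase that untangles sister chromatids, had 2173, 1859, 2239.5 and 1816 in Thy1hi and 506, 467, 406 and 427 in HFSC (2.16, SE 0.20, adjusted p = 6.66e-07). Against Thy1-, with a mean of 1077, Top2a differed by 0.92 (adjusted p = 0.0431). Ccnb1, the mitotic cyclin B1, had 206, 167, 222 and 193 in Thy1hi and 38.1, 55.4, 32.1 and 20.3 in HFSC (2.48, adjusted p = 1.35e-05). All 6 subunits of the MCM2 to MCM7 helicase that opens replication origins were higher, with a median of 1.46, among them Mcm5 with 541, 399, 361 and 544 in Thy1hi and 178, 153, 133 and 90.4 in HFSC (1.75, adjusted p = 0.00014).

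Cell cycle inhibitors and G1 regulators did not move as a block. Of 18, 3 were higher and 1 lower (all genes, 7.69% and 8.35%), with a median of 0.35 that became -0.08 without HFSC 4, where the counts were the same. Ccnd2, the G1 cyclin D2, rose by 1.19 (adjusted p = 0.00445), Cdkn2d, the inhibitor p19 of CDK4 and CDK6, by 1.56 (adjusted p = 0.00617), and Rbl1, the pocket protein p107, by 0.90 (adjusted p = 0.00598). Cdkn2b, the inhibitor p15, fell by 1.43 on the log2 scale (adjusted p = 0.0373). The counts cannot say which share of the cells was cycling. With 1 library left out at a time, the limma call was lost for Cdkn2b (without HFSC 1, 2 or 3 or without Thy1hi 1 or 3, adjusted p 0.0573 to 0.134).

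Because the cell cycle genes moved together, their promoters are shown. Late cell cycle genes are known to carry CCAAT boxes, bound by NF-Y, and the cell cycle genes homology region (CHR), bound by DREAM and MuvB complexes, and S phase genes are known to carry E2F sites. The 150 bases before the annotated start of 6 called genes are given 5′ to 3′ on the strand of the gene, from RefSeq on GRCm38.p6, with CCAAT boxes (CCAAT or ATTGG) and CHR letters (TTTGAA or TTCAAA) in capitals, and for Mcm5 CCAAT boxes and E2F letters. The stretches lie at chr10:69352913-69353062 on the minus strand (Cdk1, the mitotic kinase), chr11:99024190-99024339 minus (Top2a), chr9:70421555-70421704 minus (Ccnb2, cyclin B2), chr19:37376232-37376381 plus (Kif11, the spindle motor Eg5), chr7:135716380-135716529 minus (Mki67) and chr8:75109359-75109508 plus (Mcm5).
Cdk1: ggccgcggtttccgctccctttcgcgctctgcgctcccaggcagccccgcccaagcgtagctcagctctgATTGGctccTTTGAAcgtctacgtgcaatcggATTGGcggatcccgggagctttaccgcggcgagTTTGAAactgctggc
Top2a: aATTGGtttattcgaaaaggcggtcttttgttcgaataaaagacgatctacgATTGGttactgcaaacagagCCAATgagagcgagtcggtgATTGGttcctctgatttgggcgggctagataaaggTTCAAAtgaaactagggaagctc
Ccnb2: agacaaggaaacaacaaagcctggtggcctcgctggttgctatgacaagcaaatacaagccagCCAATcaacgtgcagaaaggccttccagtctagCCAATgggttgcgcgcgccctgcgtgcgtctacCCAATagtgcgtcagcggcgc
Kif11: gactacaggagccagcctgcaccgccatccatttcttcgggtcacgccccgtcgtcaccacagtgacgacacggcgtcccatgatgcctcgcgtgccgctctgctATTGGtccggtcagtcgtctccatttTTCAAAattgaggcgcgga
Mki67: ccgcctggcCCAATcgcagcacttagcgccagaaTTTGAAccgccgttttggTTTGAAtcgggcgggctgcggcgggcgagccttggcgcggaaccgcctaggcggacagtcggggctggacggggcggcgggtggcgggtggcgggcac
Mcm5: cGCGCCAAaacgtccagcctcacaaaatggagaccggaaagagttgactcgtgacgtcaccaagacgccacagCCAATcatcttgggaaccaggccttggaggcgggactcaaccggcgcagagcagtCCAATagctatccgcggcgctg

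Of the 42 listed genes 35 had a promoter in the RefSeq table. A CCAAT box on either strand of the 250 bases before the start was found in 28 of these 35 (80%) and in 37.5% of the promoters of all 27025 genes in the table. The CHR letters were in 10 of 35 (28.6%, all genes 18.3%), and within the 20 mitosis genes in 8 (40%). Both motifs together were in 8 of the 20 mitosis genes (40%) and in 6.45% of all. E2F letters, searched on either strand as TTGGCGC or TTGGCGG and also as TTCGCGC or TTCCCGC, were in 6 of the 15 S phase genes (40%), 4 of the 20 mitosis genes (20%) and 9.68% of all. The E2F forms TTGGCGC and TTGGCGG overlap a CCAAT box where an A comes before them. These are letter matches in a fixed window and describe sequence, not binding.

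WNT pathway genes are described by role. WNT ligands bind frizzled and LRP receptors, R-spondin receptors of the Lgr family raise receptor levels, and Dkk, Sfrp and Wif proteins intercept ligand or receptor. Of 45 tested genes 10 were higher and 15 lower (7 and 17 without HFSC 4), against 7.69% and 8.35% of all genes. In these role groups, set after the values were seen, all ligand calls were higher and most frizzled calls lower. Among 13 ligands 7 were higher and the other 6 did not pass (median 1.38). Wnt16, a ligand of basal keratinocytes, had 167, 179, 262 and 166 in Thy1hi and 45, 33.7, 67.3 and 11.2 in HFSC (2.49, adjusted p = 0.00101), and Wnt3 had 578, 398, 589 and 624 in Thy1hi and 190.5, 84.7, 186 and 114 in HFSC (1.98, adjusted p = 0.00114). No Thy1hi library fell into the HFSC range for either ligand. Wnt3a (2.27), Wnt10a (1.60), Wnt5a (1.49), Wnt4 (1.38) and Wnt7b (0.99) were higher as well. The ligand count is sensitive to HFSC 4: without it 5 were higher and 1 lower, and without both libraries numbered 4 the numbers were 4 and 2. Leaving out single libraries ended the call for Wnt10a (without HFSC 4 or without Thy1hi 1 or 4, adjusted p 0.0504 to 0.0839), Wnt3a (without HFSC 2 or without Thy1hi 1, adjusted p 0.051 to 0.0554) and Wnt7b (without HFSC 1, 2 or 4 or without Thy1hi 1, 2, 3 or 4, adjusted p 0.0509 to 0.115).

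Frizzled receptors ran the opposite way, with 5 of 10 lower and Fzd10 higher (median -1.96, and 6 lower without HFSC 4). Over all genes 8.35% were lower and 7.69% higher. Fzd2 had 25.4, 25, 20.3 and 31 in Thy1hi and 289.7, 589, 435 and 298 in HFSC (-3.88, SE 0.65, adjusted p = 0.000344), and Fzd9 (-4.33), Fzd3 (-3.31), Fzd7 (-2.39) and Fzd1 (-2.04) were also lower. Fzd10 had 351, 219, 276 and 485 in Thy1hi and 111, 109, 149 and 70.8 in HFSC (1.58, adjusted p = 0.00112). The co-receptor Lrp6 (-0.93) and Lgr4 (-1.69), which binds R-spondins like Lgr5, were lower. Of 11 antagonists 5 were lower and 2 higher. Dkk3, a Dickkopf family member, had 75.1, 43.5, 97.5 and 126 in Thy1hi and 674, 1147, 1171 and 1249 in HFSC (-3.68, adjusted p = 5.84e-06), and Nkd1 (-3.23), Sfrp1 (-2.79), Wif1 (-2.72) and Nkd2 (-1.73) were lower with it. The higher antagonists were Znrf3 (0.88) and Rnf43 (0.78), ubiquitin ligases that remove frizzled receptors from the surface. Axin2, the common readout of canonical WNT activity, had 343, 258, 337 and 618 in Thy1hi and 365, 257, 403 and 536 in HFSC. The ranges overlapped almost fully and no difference was detected (-0.03, SE 0.28, adjusted p = 0.949). The call depended on single libraries for Nkd2 (without Thy1hi 1 or 3, adjusted p 0.0561 to 0.0616) and Rnf43 (without HFSC 1 or 4 or without Thy1hi 1 or 3, adjusted p 0.0508 to 0.0852).

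**Figure D4:**
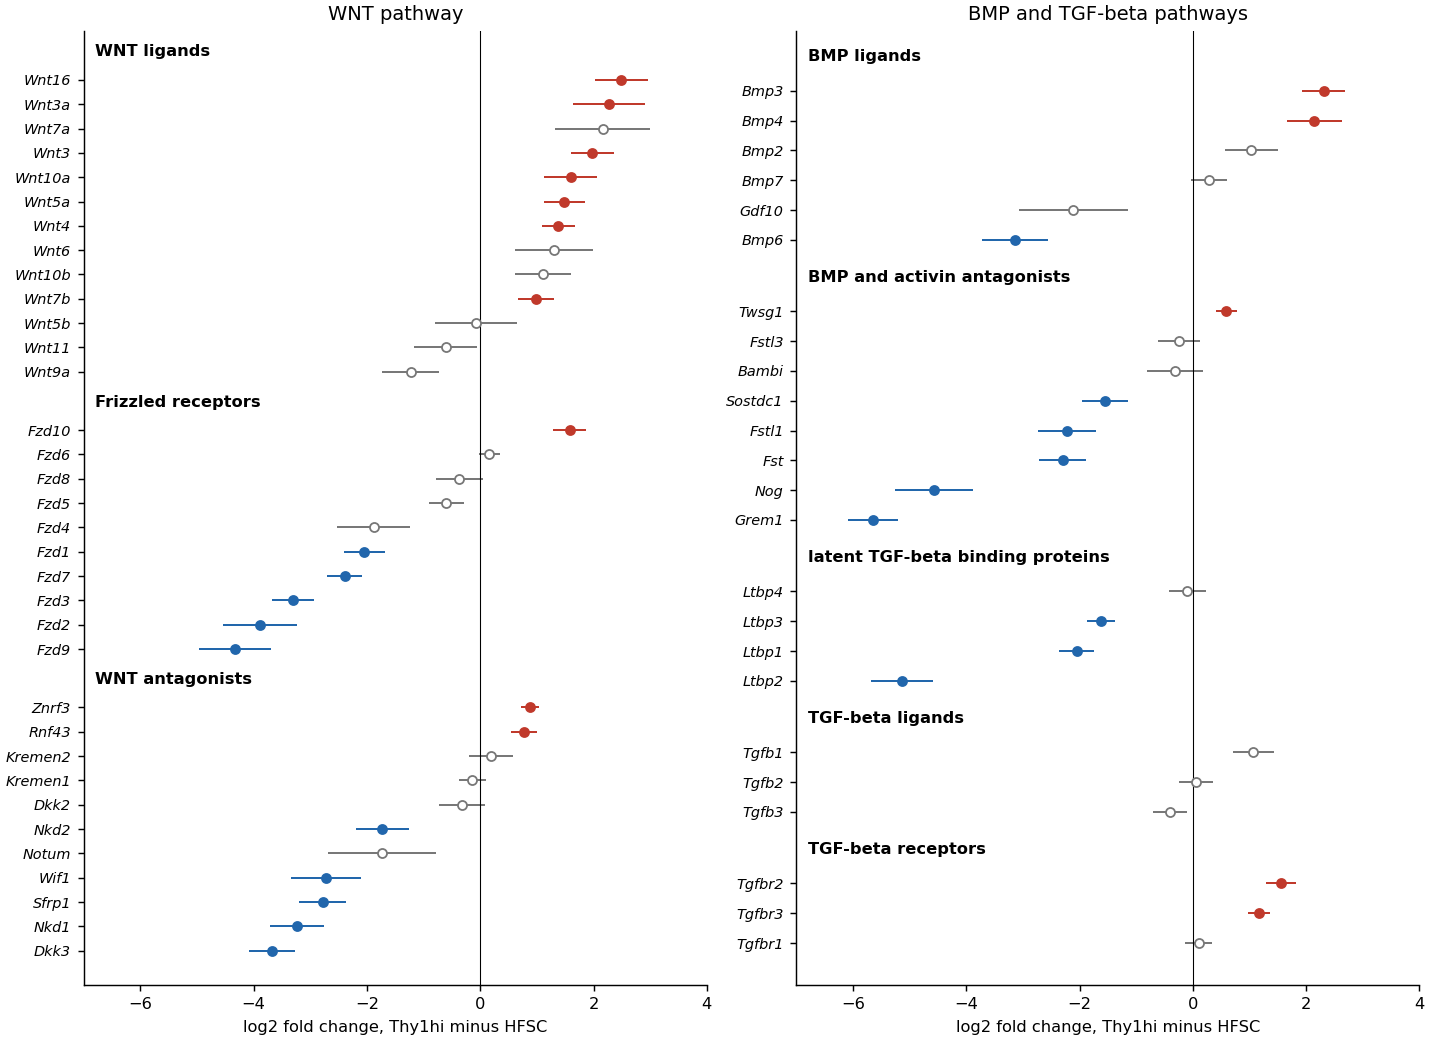
Log2 fold changes (Thy1hi minus HFSC, horizontal axis) of WNT pathway genes (left) and BMP and TGF-β pathway genes (right), grouped by role. Points are limma estimates and bars 1 SE, filled where the adjusted p was at most 0.05. WNT ligands lie mostly to the right (7 of 13 called higher), frizzled receptors mostly to the left (5 of 10 called lower), and BMP antagonists to the left (5 of 8).

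In the BMP and TGF-β list most extracellular antagonists were lower in Thy1hi, while ligands and receptors moved both ways. BMPs and TGF-βs signal through SMAD proteins, and noggin, gremlin and follistatin trap the ligands outside the cell. Of 48 tested genes 7 were higher and 15 lower (median -0.12, and 6 and 14 without HFSC 4), against 7.69% and 8.35% of all genes. Among 8 BMP and activin antagonists 5 were lower, and the same number without HFSC 4. Noggin (Nog) had 7.73, 1.32, 6.5 and 6.79 in Thy1hi and 158, 135, 145 and 119 in HFSC (-4.57, adjusted p = 0.000118). With 1.32 to 7.73 counts it was barely detected in Thy1hi, and it met the filter on counts through HFSC alone. Fst, follistatin, had 163, 256, 263 and 301 in Thy1hi and 1689.9, 1258, 1356 and 677 in HFSC (-2.30, adjusted p = 0.000755). Thy1- cells averaged 1045 and were also above Thy1hi (-2.08, adjusted p = 0.0307). Fstl1, a follistatin-like protein, fell by 2.23 on the log2 scale and Sostdc1, a BMP and WNT antagonist, by 1.55 on the log2 scale, while Twsg1, a modulator of BMP binding, rose by 0.59. Among these genes the call was lost, with 1 library left out, for Twsg1 (without HFSC 3 or 4 or without Thy1hi 1, 3 or 4, adjusted p 0.0681 to 0.114).

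Of 6 BMP ligands 2 were higher and 1 lower (all genes, 7.69% and 8.35%). Bmp3, an atypical BMP that can oppose the others, had 407, 420.2, 404 and 444 in Thy1hi and 87.7, 52.1, 103 and 104 in HFSC (2.31, adjusted p = 0.00026), and Bmp4 had 243, 221, 276 and 226 in Thy1hi and 84.3, 39.1, 78 and 32.2 in HFSC (2.14, adjusted p = 0.00457). Both were above the HFSC range in every Thy1hi library. Bmp6, a ligand of the resting bulge, fell by 3.14 on the log2 scale (adjusted p = 0.000828). The type I receptor Bmpr1b had 81.7, 75.1, 59.3 and 43.7 in Thy1hi and 3.46, 16.3, 10.7 and 11.2 in HFSC (2.65, adjusted p = 0.00307). Smad3, a transducer of TGF-β and activin, had 701, 694, 649 and 529.7 in Thy1hi and 207, 173, 196 and 96 in HFSC (1.98, adjusted p = 5.11e-05), and Tgfbr2, the type II TGF-β receptor, had 1229.8, 1268, 1173 and 1153 in Thy1hi and 538, 475, 455 and 243 in HFSC (1.55, adjusted p = 0.00035). Tgfbr3, the co-receptor betaglycan, rose by 1.17. Acvr2b, an activin type II receptor, was lower (-0.99, adjusted p = 0.0281). The inhibitory Smad6 (-3.97), the BMP-responsive Smad9 (-3.96) and the BMP target genes Id2 (-2.77) and Id4 (-1.88) were lower in Thy1hi. Of the 4 latent TGF-β binding proteins, which hold the ligand in the matrix, Ltbp2, Ltbp1 (-2.05) and Ltbp3 (-1.63) were lower. With 1 library left out at a time, the limma call was lost for Acvr2b (without HFSC 4 or without Thy1hi 2, adjusted p 0.09 to 0.114) and Id4 (without Thy1hi 3, adjusted p = 0.0513).

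Among Hedgehog signalling genes all calls were toward HFSC. Hedgehog ligands act through patched and smoothened on GLI transcription factors, and of 14 tested genes 8 were lower, against 8.35% of all genes, and 6 did not pass (median -1.08, and 8 lower without HFSC 4). Gli1, the GLI factor that is itself a target of the pathway, had 11, 9.22, 17.9 and 15.5 in Thy1hi and 126, 189, 128 and 298 in HFSC (-3.64, adjusted p = 6.04e-06). Hhip, a ligand-binding inhibitor (-3.19), Gli2, the main activator (-2.72), and Kif7, a ciliary kinesin (-1.71), followed, as did the co-receptors Boc (-1.66) and Cdon (-1.08), the ligand exporter Disp1 (-1.18) and Gli3 (-1.03). Ptch1, the receptor and a target gene, had 149, 163, 189 and 195 in Thy1hi and 195, 232, 275 and 469 in HFSC. The groups touched without overlapping, and the difference missed the threshold (-0.67, adjusted p = 0.0543), although it passed without HFSC 1 (adjusted p = 0.0232) or without HFSC 2 (adjusted p = 0.0479). HFSC 4 was its highest library, and without it the change was -0.42 (adjusted p = 0.18).

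Of 23 Notch genes 5 were higher and 2 lower (all genes, 7.69% and 8.35%), with a median of 0.34. Without HFSC 4 the counts were 3 and 2 and the median 0.02, and without both libraries numbered 4 the counts were 3 and 3. Notch drives basal cells into the spinous layer. Its ligand Dll1 had 879, 784, 535 and 1029 in Thy1hi and 360.1, 252, 330.3 and 160.4 in HFSC (1.57, adjusted p = 0.00372), and the receptor Notch1 rose by 1.21 (adjusted p = 0.00457). Dtx2, a ubiquitin ligase of the pathway (1.20), and Rfng, a glycosyltransferase that tunes Notch (0.92), were higher, and Dtx3 (-1.45) and Numb, a Notch inhibitor (-0.49), lower. Thy1- cells averaged 5816 for Notch1 and Thy1hi was not distinguished from them (0.12, adjusted p = 0.995). Leaving out single libraries ended the call for Numb (without Thy1hi 1, adjusted p = 0.0696) and Rfng (without HFSC 2, 3 or 4 or without Thy1hi 1, 2 or 3, adjusted p 0.0522 to 0.0986).

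In the EGF family, 3 of 10 ligands of the EGF receptors were higher, against 7.69% of all genes, and the other 7 did not pass. Nrg1, a ligand of ERBB3 and ERBB4, had 471, 377, 371 and 388 in Thy1hi and 104, 172, 87.7 and 18.2 in HFSC (2.43, adjusted p = 0.00419). Epgn, epigen, had 1233, 1016, 774 and 552 in Thy1hi and 189, 249, 289 and 15.4 in HFSC (2.80, adjusted p = 0.00481). Tgfa, a ligand of EGFR, rose by 1.59 (adjusted p = 0.0146). The lowest value of all 3 was in HFSC 4, the groups did not overlap in any of them, and 3 members were higher without HFSC 4, where Epgn stood at 1.84 and Tgfa at 1.01. Among 18 genes of the whole list 1 was lower (0 without HFSC 4), a smaller share than the 8.35% of all genes. This was the EGFR-restraining Lrig3 (-1.04, adjusted p = 0.0333). The call depended on single libraries for Lrig3 (without HFSC 3 or 4 or without Thy1hi 1, 2 or 3, adjusted p 0.0634 to 0.0949).

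Fibroblast growth factor genes had 6 of 17 lower and 2 higher (5 and 1 without HFSC 4), against 8.35% and 7.69% of all genes, so the higher count was near the background. Fgfr1, a receptor tyrosine kinase, had 262, 332, 531 and 452 in Thy1hi and 1779.9, 2483, 1837 and 2703 in HFSC (-2.51, adjusted p = 2.06e-05), and the ligands Fgf1 (-4.24) and Fgf18 (-3.56) and the decoy receptor Fgfrl1 (-1.86) fell with it. Fgf13, an intracellular member of the family (1.45), and Spred2, a RAS inhibitor (0.64), were higher. Fgfr2, which serves epidermal FGF7 and FGF10, had 4377, 3619.6, 4560.2 and 4090.1 in Thy1hi and 2316, 2787, 2528 and 1599.6 in HFSC and missed the threshold (0.88, adjusted p = 0.0556). Among these genes the call was lost, with 1 library left out, for Spred2 (without HFSC 1, 2 or 4 or without Thy1hi 1, 2 or 4, adjusted p 0.0687 to 0.104).

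Of 67 matrix genes 7 were higher, near the 7.69% of all genes, and 17 lower, against 8.35% (median -0.43, and 5 and 18 without HFSC 4). Thbs2, thrombospondin-2, had 2352, 1600.4, 1706 and 2157 in Thy1hi and 321, 251, 578 and 399 in HFSC (2.38, adjusted p = 0.000242). It was also higher than in Thy1-, where the mean was 377 (2.42, adjusted p = 0.00728). Col23a1, a transmembrane collagen of epithelia, had 1021, 818, 958 and 1133 in Thy1hi and 226, 144, 228 and 86.9 in HFSC (2.61, adjusted p = 0.000194), and Efemp1, a fibulin family protein, rose by 1.83 (adjusted p = 0.0142). On the HFSC side, beside Ctgf and Col8a2, stood Col6a2 (-3.44) and Col6a1 (-3.12), chains of the microfibrillar collagen VI, Col5a2, a fibrillar collagen chain (-3.34), and 4 of the 6 collagen IV chains of the basement membrane, such as Col4a3 (-3.23). Postn, periostin, had 1573, 1279, 4141 and 837 in Thy1hi and 8996, 5962, 12204 and 15338 in HFSC. Thy1hi 3 came closest to HFSC without reaching it (-2.62, adjusted p = 0.00619). With 1 library left out at a time, the limma call was lost for Efemp1 (without Thy1hi 1, adjusted p = 0.0521).

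Of 16 integrin subunits 5 were higher and 2 lower (all genes, 7.69% and 8.35%). Those higher were Itga7 (1.73), Itga6 of the gate (1.57), Itgb3 (1.56), Itga3 (1.31) and Itgb1 (1.05), of which the α6, α3 and β1 subunits anchor basal cells to laminin, and 3 were higher and 2 lower without HFSC 4. Itgb8, whose αv partner complex activates latent TGF-β, had 21, 39.5, 29.3 and 73.7 in Thy1hi and 197, 327, 269 and 412 in HFSC (-2.95, adjusted p = 1.39e-05). Thy1- cells averaged 199 and were above Thy1hi (-2.35, adjusted p = 0.00684). Itgb5 was lower as well (-1.39). Leaving out single libraries ended the call for Itga7 (without HFSC 1 or 4 or without Thy1hi 1, 2 or 3, adjusted p 0.057 to 0.0919) and Itgb3 (without HFSC 2, 3 or 4 or without Thy1hi 1, 2 or 3, adjusted p 0.0637 to 0.161).

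Among 34 cadherins and junction proteins 7 were higher and 1 lower (all genes, 7.69% and 8.35%). Cdh4, R-cadherin (1.96), Dsg2, a desmosomal cadherin (1.53), and Pkp4, a plakophilin (1.51), were among those that rose, and Cldn8, a claudin, fell by 2.21 on the log2 scale. Without HFSC 4 the counts were 4 and 1, beside 896 higher and 1128 lower of all 14750 genes. Counts this small were not tested against those shares.

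Guidance molecules, the semaphorins, ephrins, netrins, slits and their receptors, had 6 of 51 higher, near the 7.69% of all genes, and 11 lower, against 8.35% (7 and 13 without HFSC 4). Sema3e, a secreted semaphorin, had 33.1, 81.7, 86.2 and 104 in Thy1hi and 1123, 1069.8, 1713 and 2035 in HFSC (-4.33, SE 0.45, adjusted p = 2.1e-06). Sema6c (-2.71), the secreted Robo ligand Slit3 (-2.46) and the semaphorin receptor Plxna2 (-2.29) were lower too. The Robo receptors diverged, with Robo2 lower (-1.74) and Robo1 higher (1.41). Ntng2 (1.72), Sema4d (1.56) and Sema3c (1.32) were also higher. The call depended on single libraries for Ntng2 (without HFSC 2, 3 or 4 or without Thy1hi 1, 2 or 3, adjusted p 0.0597 to 0.108).

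Homeobox genes of the Hox clusters, which record body position, were tested for 23 of 39 members, and Hoxa11 and Hoxd10 had 0 reads in all 8 libraries. Of the 23, 11 were lower in Thy1hi, against 8.35% of all genes, and 12 did not pass (median -1.21, and 8 lower without HFSC 4). The B cluster accounted for 5, the C cluster for 3, the D cluster for 2 and the A cluster for 1. Hoxc13 had 0, 0, 6.5 and 2.91 in Thy1hi and 30, 68.4, 52.4 and 89 in HFSC (-4.61, SE 0.77, adjusted p = 0.000346). It had 0 reads in 2 of the Thy1hi libraries, so its fold change depends on the pseudocount. Hoxd8 had 5.52, 2.63, 4.06 and 13.6 in Thy1hi and 86.6, 59.7, 93 and 50.5 in HFSC (-3.46, adjusted p = 0.000391), and Hoxd4 (-3.38) and Hoxc6 (-1.99) followed. At a mean of at least 50 counts 4 of these genes were called, as most were expressed below that level. The filter on counts could be met through HFSC alone, as it was for Hoxc13. With no filter 9 of 37 Hox genes were lower and the median was -0.65.

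Interferon response and MHC class I genes were higher for 12 of 39, against 7.69% of all genes, with 27 not passing (median 0.88). H2-K1, a classical MHC class I heavy chain, had 3967, 4094, 3873 and 4096 in Thy1hi and 2338, 2144, 2867 and 1544 in HFSC, tight in Thy1hi (0.88, SE 0.17, adjusted p = 0.00138). The peptide transporter Tap1 (1.07), the heavy chains H2-D1 (0.92) and H2-Q4 (1.15), and the immunoproteasome subunit Psmb8 (1.29) were higher as well, and since MHC class I genes are near-identical in sequence their reads may be divided uncertainly. The largest were Oasl2 (2.01), Irf1, a transcription factor induced by interferon γ (1.95), Oas1a (1.77) and Iigp1 (1.70). Irf1 had 1493, 1376, 1176 and 924 in Thy1hi and 399, 881, 686 and 39.9 in HFSC, and without HFSC 4, its lowest library, its change was 0.97 (adjusted p = 0.01). Without Thy1hi 1, 2 or 3 the list gave 6, 7 and 6 calls and Irf1 had adjusted p between 0.0545 and 0.0739, and without HFSC 4 the list gave 7. Among these genes the call was lost, with 1 library left out, for Iigp1 (without HFSC 2, 3 or 4 or without Thy1hi 1, 2, 3 or 4, adjusted p 0.0626 to 0.136), Oas1a (without HFSC 1, 3 or 4 or without Thy1hi 1, 2, 3 or 4, adjusted p 0.0566 to 0.128) and Oasl2 (without HFSC 4 or without Thy1hi 3, adjusted p 0.0547 to 0.0626).

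Immediate early genes, which dissociation and sorting are known to induce, gave 0 calls of 25 with limma, 0 with edgeR and 0 with DESeq2, and 3 at an unadjusted p of 0.05. The 3 with the highest mean normalized counts over both populations were Jun (0.999, adjusted p = 0.315), Fos (0.96, adjusted p = 0.405) and Atf3 (1.29, adjusted p = 0.341). The median of all 25, 0.70, became -0.21 without HFSC 4.

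Of the metabolic lists, the retinoid genes gave the largest share of calls. Among 22 of them 5 were lower and 0 higher, against 8.35% and 7.69% of all genes (median -0.84). The lower ones included Crabp2, a carrier of retinoic acid (-1.84, adjusted p = 0.0226), Rbp2 (-1.53) and the retinoic acid degrading enzyme Cyp26b1 (-1.23). Without Thy1hi 1 or without Thy1hi 3 the list gave 2 calls, and 6 without HFSC 4. Of 35 sterol and lipid genes 2 were higher, Ch25h among them, and 2 lower, the desaturase Fads1 (-1.93) and the ATP citrate lyase gene Acly (-0.70). Of 28 redox and stress genes 2 were higher, the glutathione transferase Gsta4 (2.64) and glutathione reductase Gsr (1.03), and 3 lower, the glutathione synthesis genes Gclm (-1.34) and Gclc (-0.85) and catalase, Cat (-0.82). In the sterol and redox lists these counts are near the shares over all genes, and without HFSC 4 they were 2 and 3 for the sterol list and 2 and 4 for the redox list. Without HFSC 2 Gclc stood at -0.47. With 1 library left out at a time, the limma call was lost for Acly (without HFSC 1 or 3 or without Thy1hi 1, 2 or 3, adjusted p 0.0771 to 0.132), Cat (without HFSC 1 or 3 or without Thy1hi 3, adjusted p 0.0553 to 0.0634), Crabp2 (without Thy1hi 1, 2 or 3, adjusted p 0.0618 to 0.0715), Cyp26b1 (without HFSC 1, 2 or 3 or without Thy1hi 2 or 3, adjusted p 0.0625 to 0.0895), Gclc (without HFSC 2 or without Thy1hi 1, 2 or 3, adjusted p 0.0737 to 0.101) and Rbp2 (without HFSC 1 or without Thy1hi 1 or 3, adjusted p 0.0852 to 0.155).

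Marker lists of other skin cells were read in the same 8 libraries, where 7.69% of all genes were higher and 8.35% lower. Melanocyte markers summed to 134, 188, 146 and 235 in Thy1hi and to 878, 772, 1009 and 1081 in HFSC, and 4 of 7 were lower, with or without HFSC 4, namely Mitf (-2.93), Dct (-2.003), Pmel (-1.85) and Tyrp1 (-1.81). Sebaceous gland markers summed to 3064 to 5770 in Thy1hi and 3333 to 13173 in HFSC, with Mgst1, Ldhb and Krt79 lower of 14 (4 lower without HFSC 4). Langerhans markers had 1 of 13 lower, Mfge8, but 7 lower without HFSC 4. Cd207, the langerin that defines these cells, had 106, 216, 104 and 217 in Thy1hi and 424, 958, 554 and 1.4 in HFSC. It passed without HFSC 4 (-2.0, adjusted p = 0.00196) and was at 1 count in that library. T cell markers (sums 346 to 744 in Thy1hi, 223 to 586 in HFSC) gave 0 calls of 14 with limma, edgeR and DESeq2 and 0 at an unadjusted p of 0.05. Fibroblast markers (246 to 2087 and 259 to 841) gave 0 of 9 with limma, 1 with edgeR, 2 with DESeq2 and 2 at an unadjusted p of 0.05. Endothelial and mural markers had Cspg4 lower (-2.53) of 6, and of 5 Merkel and Schwann markers Mbp (1.18, and 0.78 without HFSC 4) and the neurotrophin receptor Ngfr (1.72) were higher, with Sox2, which defines Merkel cells, at 0. The part of these cells in the differences above was not tested. Leaving out single libraries ended the call for Ldhb (without HFSC 1, 3 or 4 or without Thy1hi 1, 2 or 3, adjusted p 0.0617 to 0.113), Mfge8 (without HFSC 1, 2 or 3 or without Thy1hi 1, 2 or 3, adjusted p 0.0623 to 0.0964) and Pmel (without HFSC 1 or 2 or without Thy1hi 1, 2 or 3, adjusted p 0.0523 to 0.132).

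**Figure D5:**
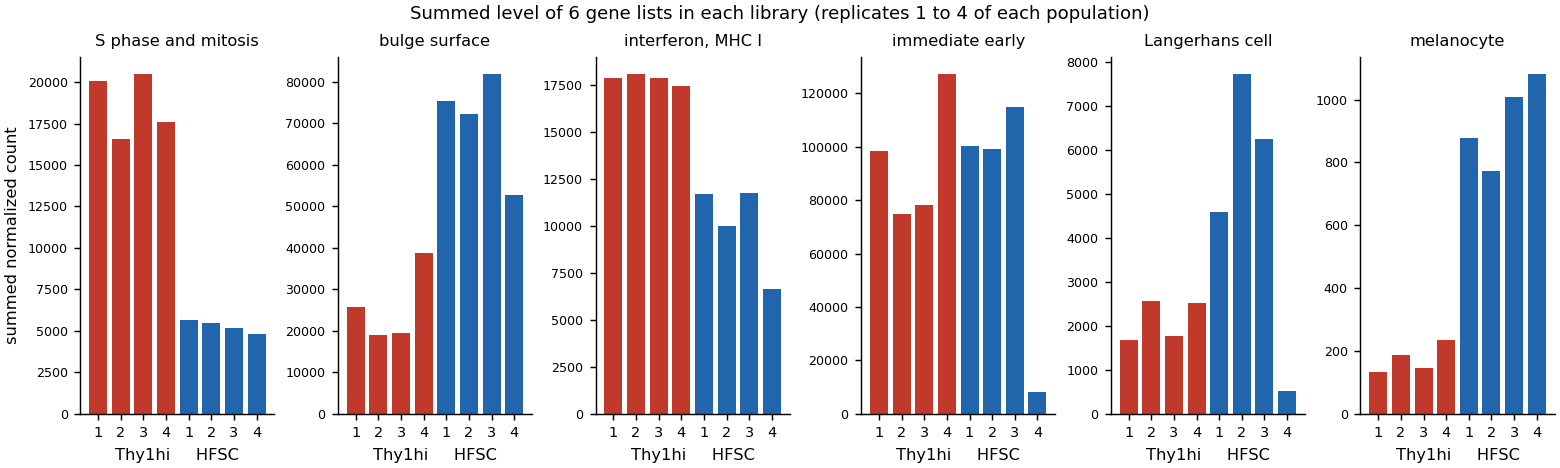
Summed normalized counts (vertical axes from 0) of 6 gene lists in each library, Thy1hi in red and HFSC in blue, with replicates 1 to 4 in order. S phase and mitosis genes are higher in every Thy1hi library, bulge surface and melanocyte genes in every HFSC library, and HFSC 4 is low for immediate early (7989.7) and Langerhans cell genes (526).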

How the data were processed

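Bulk RNA was sequenced from sorted mouse epidermal cells. Per the submitters' processing notes and the methods, STAR (build mm10) and featureCounts with Ensembl genes were used by the authors, in versions not given in the sources used here. The deposited signal values are gene counts divided by size factors, and in the 8 libraries compared 100% of the low values were whole multiples of 1 read, within 0.1 read. In the column of Thy1- replicate 4 the values of 3212 genes stood out of order, and they were put back by gene name (correlation with the other Thy1- libraries 0.075 before and 0.9327 after). This column enters the estimate of spread and the Thy1- level. No column of per-sample values was left unmapped.

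Values were tested as log2(value + 1) with limma 3.58.1 (R 4.3.3, mean-variance trend, two-sided, Benjamini-Hochberg adjustment, threshold 0.05) with 1 mean per population over all 20 libraries, which shared the estimate of spread, after the filter of 10 counts in 3 libraries. edgeR 4.0.16 and DESeq2 1.42.0 on the recovered whole reads were alternatives, as were other filters, pseudocounts, scalings, a replicate block and leaving out each library. The lineage-labelled libraries did not enter the edgeR and DESeq2 fits. The tests were also run on simulated counts with known changes, which held no lineage-labelled libraries and no library set apart as HFSC 4 was. That run therefore cannot show how a library like HFSC 4 affects the calls. The series describes its replicates as biological, but pooled animals per library are not stated for each, so p-values measure the spread between these libraries. Depth limits genes of few counts, and the limma standard errors, like the p-values, measure the spread between libraries.

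Deviations of same-numbered Thy1hi and HFSC libraries correlated at 0.0310, 0.174, -0.131 and -0.235 over genes, and all other pairs at -0.285 to 0.395, so the numbers did not pair these samples. Same-numbered Thy1hi and Thy1- libraries correlated at 0.306, 0.509, 0.375 and 0.721, and each of these Thy1hi libraries correlated best with its own number. Thy1- 1, however, correlated better with Thy1hi 2 (0.498) than with Thy1hi 1. The labels do not say what a shared number marks, so a pairing of these samples is not certain. Named genes were the gate and marker genes, the 15 largest called, non-overlapping changes per direction with a mean of at least 100 counts in the higher population, up to 4 called members per list and direction, and pathway members a count rests on. Sox9, Runx1, Krt5, Krt10, Krt14, Krt15, Klf5, Axin2, Ptch1, Fgfr2, Mcm5, Cd207 and other genes outside that rule were chosen after their values were seen. The members and the lists were chosen with earlier results of these data known, and role groups within lists were set after the values were seen. Some genes that this rule would name are not reported here.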

Additional observations from a re-analysis of the deposited data

Results flagged for a closer look

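The spread within each group of 4 libraries was examined with Dixon's ratio in 182 groups, of which 9 held a library beyond the 95% critical value. Chance alone gives about 1 in 20. Of the 9, 4 were in HFSC 4. Krt14 stood at 9871.7 in HFSC 4 against 26882 to 29855 in the other HFSC libraries, Tap1 at 297 against 554 to 576, and Ifi202b at 37.8 against 869 to 979.7. The uncharacterized gene 9530086O07Rik stood at 275 in HFSC 4 against 54.5 to 79.7. In HFSC 2, Depdc7 reached 45.6 (others 21.4 to 25.2) and Shisa2 1345 (others 513 to 607). Among the Thy1hi libraries, Ly6a reached 261 in Thy1hi 1 (others 185 to 196), Wnt16 262 in Thy1hi 3 (others 166 to 179) and Crabp2 60.2 in Thy1hi 4 (others 17.9 to 19.9). Without HFSC 4 the changes in Krt14, Tap1, Ifi202b and 9530086O07Rik were 1.40, 0.84, 1.64 and -4.41 on the log2 scale, with adjusted p (limma) of 0.0226, 0.00224, 0.0181 and 0.000378.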

How the results depend on the processing

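Among the 728 named or listed genes examined, no change called by the main test had the opposite sign under an alternative. None of these genes that was called under an alternative had the opposite sign in the main test. Signs did differ between alternatives, as for Cd207 (0.88 without HFSC 2 and -2.0 without HFSC 4, where it was called). The changes of the 728 genes examined kept their side of the threshold in 14968 refits, lost it in 507 and gained it in 362. With the replicate number as a block, the 2 populations alone gave 1550 called genes (745 higher, 805 lower) and all populations together 3769 (1858 higher, 1911 lower). The numbers did not pair Thy1hi with HFSC libraries, while same-numbered Thy1hi and Thy1- libraries deviated together. Between those, all populations together gave 63 called genes, the 8 libraries alone 205, and those with the replicate block 1473. On the same total, 782 genes were lower. Leaving out 1 library at a time gave 1621 (without Thy1hi 1) to 2555 (without Thy1hi 4) called genes, 787 to 1255 higher and 834 to 1300 lower. Over the same fits the list counts ranged from 13 to 14 for bulge transcription factors, 21 to 22 for bulge surface genes, 11 to 13 for basal genes, 8 to 9 for Hedgehog, 8 to 12 for Hox, 37 to 39 for the cell cycle and 6 to 13 for interferon genes. The interferon list gave 6 calls with the 2 populations alone, 7 with the block in those populations and 7 without both libraries numbered 4, and the Hox list gave 4 at a mean of at least 50, where fewer genes were tested. With the values of Thy1- replicate 4 left in the deposited order 2173 genes were called, and Notch1 (adjusted p = 0.705), Nrg1 (0.153), H2-K1 (0.637) and Ngfr (0.169), which lie among the displaced genes, were not. DESeq2 called 3249 genes and edgeR 2509, both without the lineage-labelled libraries, and limma with no filter on low values called 1827. The cause of these shifts was not tested. Genes of few counts, such as Procr, Nog, Hoxc13 and 9530086O07Rik, are limited by depth, and each of these met the filter through 1 population alone.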

Other observations

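Replication-dependent histone genes, which package new DNA in S phase, were not in the lists and were looked at after their values were seen, so no test was made of them as a group. Of 51 tested genes with a symbol that starts with Hist, 38 were higher in Thy1hi (7.69% of all genes) and 13 did not pass, with a median of 1.56 and 32 higher without HFSC 4. Hist1h1b (chromosome 13, 21779883 to 21780625), a linker histone, had 697, 424, 538 and 691 in Thy1hi and 167, 164, 151 and 101 in HFSC (2.002, SE 0.34, adjusted p = 0.000446 by limma). The Thy1- libraries averaged 351. These genes are near-identical copies whose reads may be divided uncertainly. Kit and population could not be separated, and the part of the RNA kit in these histone values was not tested.

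Interleukins and their receptors were also read after the values were seen. Of 44 tested, 15 were higher and 3 lower (11 and 2 without HFSC 4), against 7.69% and 8.35% of all genes. Il33 (chromosome 19, 29925114 to 29960718), an alarmin of barrier cells, had 498, 514, 958 and 369 in Thy1hi and 114, 146, 152 and 68.7 in HFSC (2.25, SE 0.49, adjusted p = 0.00364 by limma), without overlap. The higher receptor genes included Il20ra (2.08), Il12rb2 (1.73), Il4ra (1.40), Il10rb (1.34), Il13ra1 (1.32) and Il6st (0.83), the last being the shared signalling subunit gp130. In the epidermal T cell libraries of the series Il12rb2 averaged 3902 and Il4ra 3836, against 401 and 770 in Thy1hi. The other receptor genes just named had lower means in those libraries than in Thy1hi. Il31ra, Il11ra1 (-2.38) and Il22ra1 (-1.51) were lower. Among 14 genes of the TNF receptor family 5 were higher (4 without HFSC 4 and 3 without both libraries numbered 4) and 1 lower, the decoy receptor Tnfrsf11b (-2.65), and Tnfrsf19 (Troy) rose by 1.45.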
